A study of Mus musculus with 12 samples.

Results

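The collagen genes encode the chains of the triple-helical proteins that make up most of the extracellular matrix of skin, cartilage and basement membranes. They were taken here as every symbol in the deposited expression tables made of Col, a type number, the letter a and a chain number. The rule found 43 genes among the 23234 symbols listed for each library. Of these, 33 passed the filter on low values (1 FPKM or more in 3 or more of the 12 libraries) and were tested, and 10 were not. FPKM counts sequenced fragments per unit of transcript length, relative to all fragments mapped, so levels can be set side by side between genes.

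Expression was measured by RNA sequencing in mouse ear skin, with 3 libraries in each of 4 groups and mice aged 8 to 12 weeks. The group called VDRcKO_Oxarol is labelled K5-Cre;VDR f/f and was collected 1 day after 100 mg of Oxarol ointment, which holds the active vitamin D3 analogue maxacalcitol, had been put on the ear. In this genotype Cre recombinase, under the keratin 5 promoter of basal keratinocytes, acts on a floxed vitamin D receptor gene (Vdr). WT_Oxarol received the same ointment, WT_PBS was collected 1 day after phosphate-buffered saline (PBS), and WT_untreated received nothing; these 3 groups are wild type C57BL/6J. No PBS or untreated group of the K5-Cre;VDR f/f genotype was analysed here, so a difference of VDRcKO_Oxarol from wild type that existed before the ointment and one that came with it cannot be told apart. The labels give this genotype as its own strain and do not call the wild type mice littermates.

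Collagen chains fold 3 together into a triple helix after hydroxylation of prolines and lysines in the endoplasmic reticulum. Fibrillar collagens (types I, III and V in dermis, II and XI in cartilage) are then cleaved at their ends, packed into fibrils and crosslinked. Type IV forms the sheet of basement membranes, types VII and XVII tie the epidermis to the dermis, and types XII, XIV and XVI sit on fibril surfaces. Dermal fibroblasts make most of the fibrillar collagen of skin, while the ear also holds a plate of cartilage with its own collagens. In whole skin, fewer cells of a type and less RNA per cell cannot be told apart.

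The libraries were first checked against their labels. Vdr stood at 23.6, 25.04 and 17.98 FPKM in the VDRcKO_Oxarol libraries, against 7.87, 6.68 and 7.04 FPKM in WT_Oxarol, 9.28, 10.2 and 9.43 in WT_PBS and 4.87, 9.35 and 9.57 in WT_untreated. All 3 VDRcKO_Oxarol values lay above every wild type value, a difference of 1.49 ± 0.21 from WT_Oxarol (SE, limma adjusted p = 0.00558). A gene-level value includes exons outside a deleted stretch and every cell type of the skin, and therefore is no test of the deletion. Cyp24a1, a receptor target whose product breaks down the hormone, stood at 0, 0.271 and 0.175 FPKM in VDRcKO_Oxarol, against 66.2, 599 and 458 in WT_Oxarol. All 3 VDRcKO_Oxarol values of Cyp24a1 lay below all 3 WT_Oxarol values. The library codes form 2 series. All 3 VDRcKO_Oxarol libraries are in the second one, together with replicate 3 of WT_Oxarol, WT_PBS and WT_untreated, and the other 6 wild type libraries are in the first. Judged by the steps between low values, the VDRcKO_Oxarol libraries held 0.0404 to 0.0591 of the reads of the deepest library, WT_PBS replicate 3, and the other 8 wild type libraries held 0.0647 to 0.212; the absolute depth is unknown. WT_untreated replicate 1 stood apart, with low values for genes of high GC content and the lowest library value of several collagens.

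Levels were ordered first within wild type skin. Over the 9 wild type libraries, Col1a1, Col1a2 and Col3a1, the chains of the main dermal fibrils, had the highest medians at 253.6, 182 and 169 FPKM. Col6a1 of the beaded filaments followed at 76.2 FPKM, then Col17a1 of the hemidesmosome at 65.1 FPKM and Col8a1 of the short chain network at 53.9 FPKM. The highest cartilage collagen was Col9a3 at 8.02 FPKM and the highest type IV chain was Col4a2 at 4.48 FPKM. In VDRcKO_Oxarol the first position was again Col1a1, with a median of 924 FPKM over 3 libraries, while Col3a1 at 420.3 FPKM stood above Col1a2 at 335 FPKM. Col2a1, the main fibril chain of cartilage, was 12th of 43 in VDRcKO_Oxarol (13.0 FPKM) and 23rd in wild type (2.61 FPKM).

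**Figure D1:**
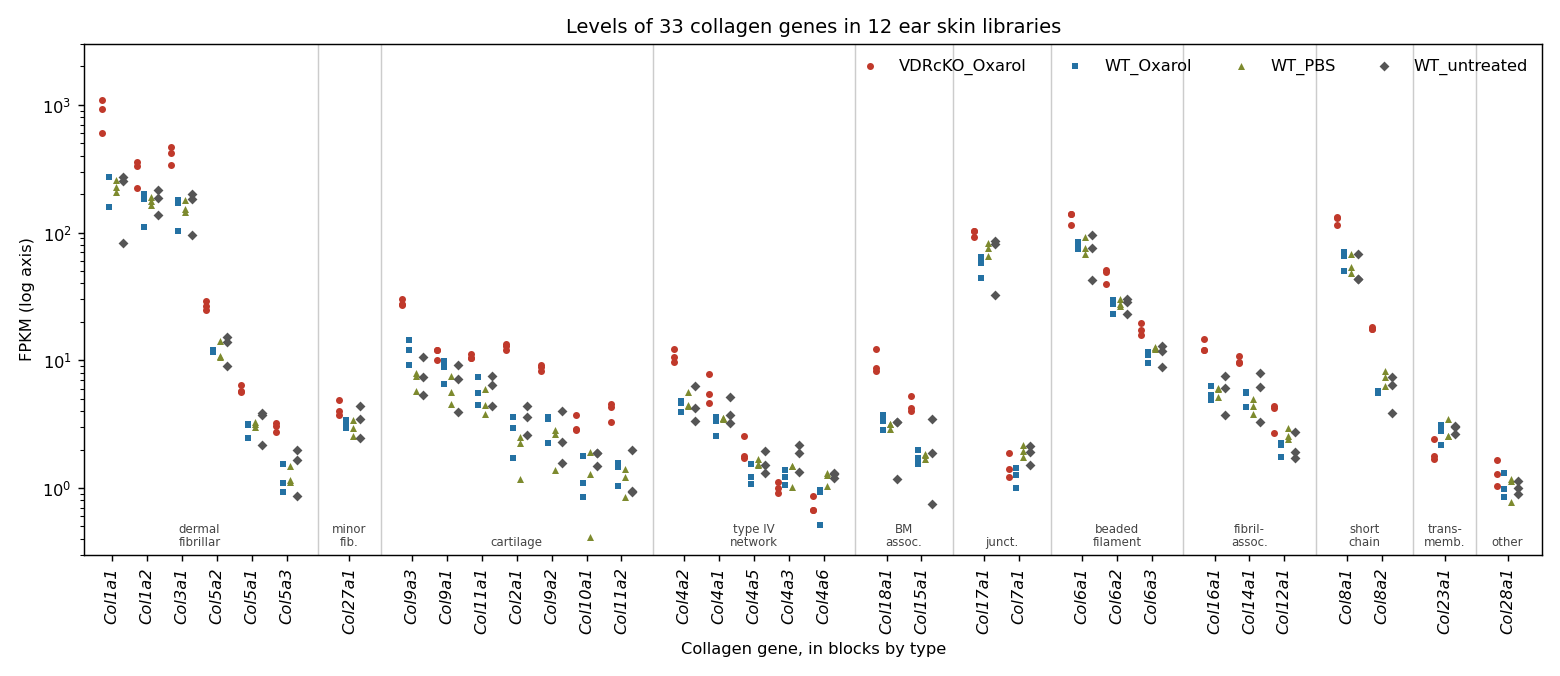
FPKM (log axis) of the 33 tested collagen genes in each library, in blocks by collagen type, with 3 points for each of the 4 groups. The VDRcKO_Oxarol points lie above those of the 9 wild type libraries for most fibrillar and cartilage genes, while in the type IV block only those of Col4a2 do.

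Summed over its genes, the family took a larger share of the measured expression in VDRcKO_Oxarol. Col1a1, Col1a2 and Col3a1 made up 66.7% to 74.3% of the collagen sum in VDRcKO_Oxarol and 53.8% to 67.2% in WT_Oxarol. The mean sum of the transmembrane collagens was not higher, at 3.15 FPKM in VDRcKO_Oxarol and 3.41 FPKM in WT_Oxarol. The 43 genes summed to 0.3298%, 0.510% and 0.470% of all FPKM in the VDRcKO_Oxarol libraries, against 0.197%, 0.136% and 0.185% in WT_Oxarol, 0.182%, 0.161% and 0.211% in WT_PBS and 0.0992%, 0.216% and 0.204% in WT_untreated. The 3 VDRcKO_Oxarol values lay above all 9 wild type values. The means were 0.437% ± 0.095 in VDRcKO_Oxarol and 0.172% ± 0.032 in WT_Oxarol (SD, n = 3 each; two-sided exact permutation test, p = 0.1, the smallest that 3 against 3 libraries can give).

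The first comparison, VDRcKO_Oxarol against WT_Oxarol, asks how ointment-treated ears differ with the genotype. Of the 33 collagen genes tested, 23 rose in VDRcKO_Oxarol, 0 fell and 10 did not pass the test. Over all 14059 genes tested, 8.71% were called higher and 4.43% lower. The median log2 change of the 33 was 0.86, against 0.08 over all genes tested. Of the 33 differences 30 were above 0, a share that was not counted for all genes. All 3 VDRcKO_Oxarol libraries lay above all 3 WT_Oxarol libraries for 28 of the 33, where 27.9% of all genes tested did so, and below them for 0 (14.3%). They lay above all 9 wild type libraries for 24 of the 33, where 15% of all genes tested did so. Changes are differences of log2(FPKM + 1), which understates the change of genes with low values.

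Some other measures moved with the same contrast. Genes with a high share of G and C in their transcripts tended to be higher in VDRcKO_Oxarol: the median log2 change of all genes was -0.00 in the lowest and 0.24 in the highest of 10 equal bins of GC content. The tested collagens had a median GC content of 56.4%, against 49.7% for all genes tested, and 13 of the 33 lay in the highest bin. With the values centred in bins of GC content, an alternative chosen after seeing the data, 20 of the 33 were called higher, 0 lower, and the median of the 33 was 0.73. With GC content and length adjusted together, also chosen after seeing the data, 18 were called higher and 1 lower, Col23a1, and the median was 0.53. Of all 14059 genes tested, 895 were called higher with the GC adjustment, 989 with both adjusted and 1225 with neither. With a term for the library series, 7 of the 33 were called higher, with a median of 0.72, and among all genes 283 were called against 1848 without it. Within the second series alone, where WT_Oxarol has 1 library whose spread is assumed to be that of the others, 1 was called with a median of 0.77, and 30 of the 33 remained above 0. With median-of-ratios scaling 21 were called higher, 0 lower, with a median of 0.76, and 826 of all genes were called higher. That scaling moved the share of all calls that were higher to 41.8%, against 66.3% without it, and the median of all genes to -0.00. Leaving out VDRcKO_Oxarol replicate 2 left 11 called, as did leaving out WT_Oxarol replicate 2. Of all genes, 504 and 322 were then called in either direction.

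**Figure D2:**
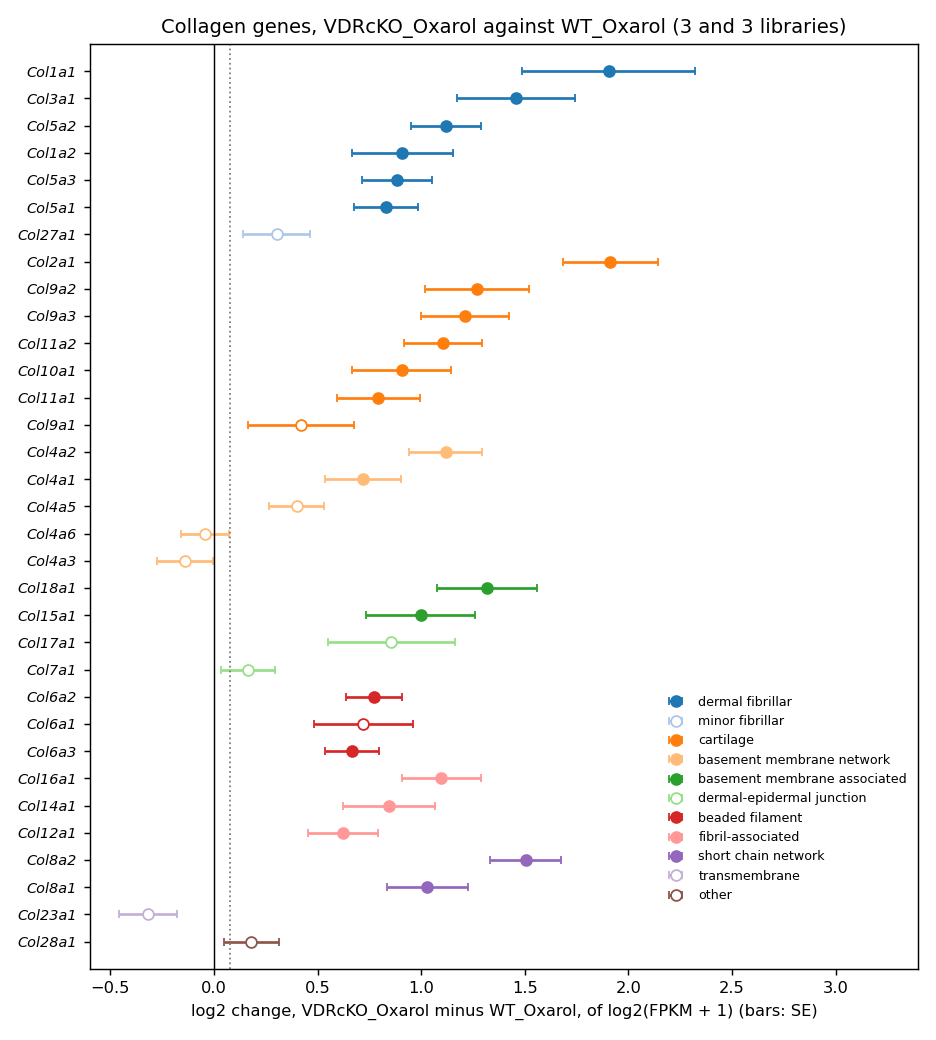
Log2 change of each of the 33 tested collagen genes, VDRcKO_Oxarol minus WT_Oxarol, as points with SE bars, with filled points where the limma adjusted p was under 0.05. Colours give the collagen type and the dotted line the median change of all genes tested, 0.08; all 6 dermal fibrillar genes are filled and both dermal-epidermal junction genes are open.

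All 6 dermal fibrillar genes rose in VDRcKO_Oxarol, with a median log2 change of 1.01. Types I and III form the thick fibrils that carry load in dermis, and type V chains start the fibrils and limit their width. Col1a1, the main chain of type I, stood at 602, 1100.0 and 924 FPKM in the VDRcKO_Oxarol libraries, against 271, 158 and 270.3 FPKM in WT_Oxarol, 228, 206 and 260.5 in WT_PBS and 82.3, 272 and 254 in WT_untreated. The groups did not overlap, the difference was 1.90 ± 0.42 (SE, limma adjusted p = 0.0205), and WT_untreated replicate 1 was the lowest of all 12 libraries. Col1a2, the second chain of type I, stood at 223, 360.1 and 335 FPKM in the VDRcKO_Oxarol libraries, against 199, 111 and 182 FPKM in WT_Oxarol, 176, 165 and 189.9 in WT_PBS and 138, 214 and 187 in WT_untreated. The change of Col1a2 was smaller at 0.91 ± 0.24 (SE, limma adjusted p = 0.0381), and VDRcKO_Oxarol replicate 1 exceeded the highest wild type library by little. Its call was lost under 15 of 26 alternatives, among them the GC adjustment (adjusted p = 0.0584) and the series term (adjusted p = 0.16), and the adjusted p ranged from 0.00685 to 0.273 over them. Col3a1, the single chain of type III, stood at 336, 466 and 420.3 FPKM in the VDRcKO_Oxarol libraries, against 181, 102 and 169 FPKM in WT_Oxarol, 152, 146 and 181 in WT_PBS and 96.3, 183 and 200.1 in WT_untreated. It rose by 1.46 ± 0.28 (SE, limma adjusted p = 0.0148), and every VDRcKO_Oxarol library stood above every wild type library.

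The type V genes rose at lower levels. Col5a1 stood at 5.75, 6.37 and 5.69 FPKM in the VDRcKO_Oxarol libraries, against 3.17, 2.45 and 3.11 FPKM in WT_Oxarol, 3.3, 3.02 and 3.15 in WT_PBS and 2.17, 3.72 and 3.83 in WT_untreated. Col5a2 stood at 24.98, 28.99 and 26.6 FPKM in the VDRcKO_Oxarol libraries, against 11.6, 11.7 and 12.1 FPKM in WT_Oxarol, 10.8, 10.6 and 14.1 in WT_PBS and 8.96, 13.9 and 15.3 in WT_untreated. Col5a3, a less widely used chain, stood at 3.04, 3.23 and 2.77 FPKM in the VDRcKO_Oxarol libraries, against 1.09, 0.933 and 1.54 FPKM in WT_Oxarol, 1.15, 1.11 and 1.495 in WT_PBS and 0.8699, 1.66 and 1.98 in WT_untreated. For each of these 3 genes the VDRcKO_Oxarol libraries lay above all wild type ones and closer to each other than for type I. The changes were 0.83 ± 0.15 (SE, limma adjusted p = 0.0136) for Col5a1, 1.12 ± 0.17 (SE, limma adjusted p = 0.00721) for Col5a2 and 0.88 ± 0.17 (SE, limma adjusted p = 0.0145) for Col5a3. The dermal fibrillar calls fell to 5 of 6 with the GC adjustment and to 1 of 6, Col5a2, with the series term, where the class median was 0.86. With GC content and length adjusted together 4 of 6 were called. Col1a2 (limma adjusted p = 0.07945) and Col5a3 (0.28 ± 0.11, SE, limma adjusted p = 0.1035) were not. The call of Col5a3 was lost under 5 of 25 alternatives.

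The promoter windows of Col1a2 and Col3a1 are printed because both genes rose and differ in the motifs at their starts. The table (RefSeq, GRCm38.p6, 250 bases before to 50 after the start) matched 35 of the 43 collagens. The window of Col1a2 is chr6:4505368-4505667 on the plus strand and that of Col3a1 is chr1:45311288-45311587 on the plus strand. Capitals mark CCAAT (the CCAAT box), TATAAA (the TATA box) and GGGCGG (the core of the GC box) on either strand.
Col1a2: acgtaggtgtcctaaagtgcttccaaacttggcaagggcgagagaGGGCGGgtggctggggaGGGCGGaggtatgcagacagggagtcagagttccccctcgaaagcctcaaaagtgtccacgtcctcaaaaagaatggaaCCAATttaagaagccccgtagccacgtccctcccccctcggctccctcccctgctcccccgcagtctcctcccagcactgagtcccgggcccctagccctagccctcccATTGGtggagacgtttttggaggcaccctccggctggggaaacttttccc
Col3a1: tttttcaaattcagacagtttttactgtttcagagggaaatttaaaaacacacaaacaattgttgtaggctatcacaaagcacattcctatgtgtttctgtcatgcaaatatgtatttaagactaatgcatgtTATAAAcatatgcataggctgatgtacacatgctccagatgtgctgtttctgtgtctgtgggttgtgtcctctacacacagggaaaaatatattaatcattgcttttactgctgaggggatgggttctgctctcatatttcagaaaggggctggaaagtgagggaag
The Col1a2 window holds GGGCGG at 205 and 188 bases before the start and CCAAT at 109 bases before it and, on the other strand, at the start. The Col3a1 window holds neither and has TATAAA at 117 bases before the start. Across the 35 matched collagens, GGGCGG was present in 22 (62.9%), against 38.2% of all genes in the table, CCAAT in 13 (37.1%), against 41.1%, and TATAAA in 5 (14.3%), against 15.7%. AGGTCA, a short unit of many nuclear receptor sites, was present on either strand in 8 (22.9%), against 18.1% of all genes. No matches overlapped within the printed windows, and they describe letters only.

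Ratios between chains of one type lay apart in VDRcKO_Oxarol and WT_Oxarol for some types and overlapped for others. Type I is mostly built of Col1a1 and Col1a2 chains in unequal number, with more of Col1a1. Col1a1 over Col1a2 was 2.70, 3.05 and 2.76 in VDRcKO_Oxarol, against 1.36, 1.42 and 1.49 in WT_Oxarol, 1.30, 1.25 and 1.37 in WT_PBS and 0.595, 1.27 and 1.35 in WT_untreated. The VDRcKO_Oxarol values lay above all 9 wild type values, and WT_untreated replicate 1 lay below the rest. Col3a1 over Col1a1 ran the other way, at 0.557, 0.423 and 0.455 in VDRcKO_Oxarol, against 0.670, 0.646 and 0.626 in WT_Oxarol and 0.666 to 1.17 in the other 6 libraries. Each of these ratios gave an exact two-sided permutation p of 0.1 against WT_Oxarol, the smallest possible (adjusted p = 0.163 over the 13 library values compared). Col8a1 over Col8a2 gave the same permutation p, at 6.28 to 7.48 in VDRcKO_Oxarol and 8.82 to 12.3 in WT_Oxarol. It overlapped with WT_PBS (6.57 to 9.22) and WT_untreated (6.76 to 11.1). The transcript GC content is 58.9% for Col1a1 and 55.7% for Col1a2, and the difference between their log2 changes was 1.00 without and 0.96 with the GC adjustment, and 0.70 with GC content and length adjusted together. By contrast, Col5a2 over Col5a1, Col6a1 over Col6a2 and Col6a1 over Col6a3 overlapped between VDRcKO_Oxarol and WT_Oxarol (exact permutation p = 0.4, 0.6 and 1), with means of 4.52 and 4.11, 2.82 and 2.96, and 7.48 and 7.43 in VDRcKO_Oxarol and WT_Oxarol.

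**Figure D3:**
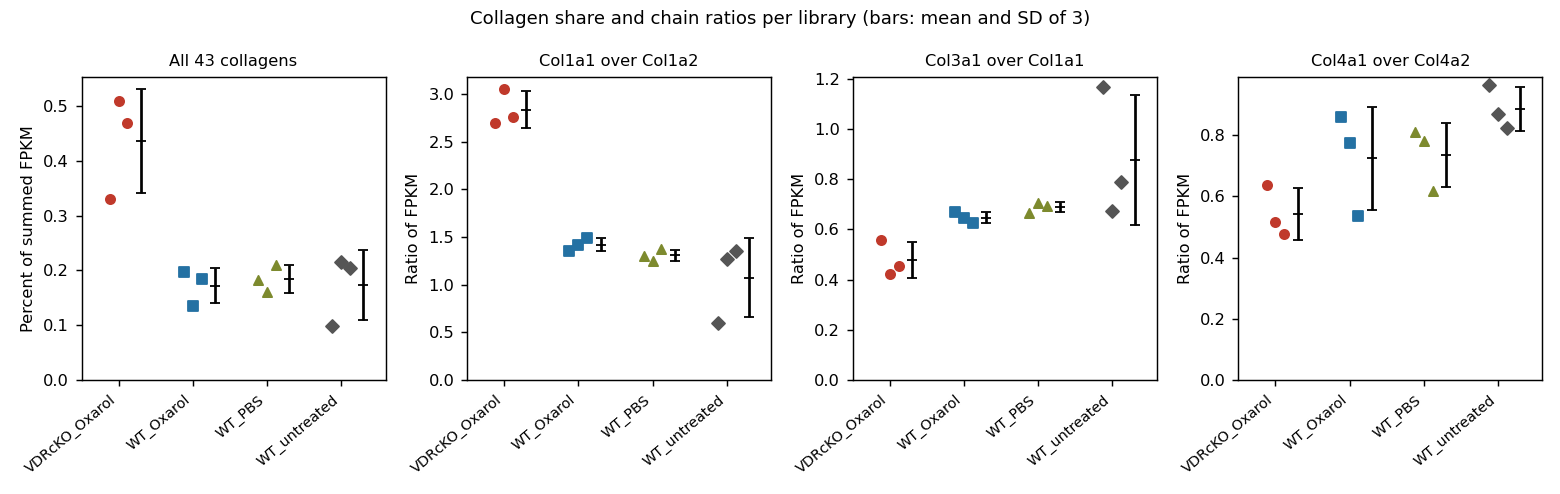
Share of all 43 collagens in summed FPKM (percent) and 3 ratios of FPKM between chains, with 1 point per library and the mean and SD of each group of 3. The Col1a1 over Col1a2 ratio is at or above 2.70 in VDRcKO_Oxarol and at or below 1.49 in all 9 wild type libraries.

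The cartilage collagens rose in 6 of 7 genes, with a median log2 change of 1.11. Col2a1, the main fibril chain of cartilage, stood at 12.1, 13.04 and 13.4 FPKM in the VDRcKO_Oxarol libraries, against 1.73, 2.92 and 3.62 FPKM in WT_Oxarol, 2.27, 1.18 and 2.51 in WT_PBS and 2.61, 4.35 and 3.62 in WT_untreated. Its VDRcKO_Oxarol libraries were close together and far above the wild type range, and the change of 1.91 ± 0.23 (SE, limma adjusted p = 0.00303) was the largest of the 33. The call was lost only within the second series alone, where the change was 1.58 (adjusted p = 0.0551, the highest over 26 alternatives, against 0.000906 at the lowest). The 3 chains of type IX, a molecule that coats type II fibrils, behaved unevenly. Col9a1 stood at 10.1, 12.1 and 12.1 FPKM in the VDRcKO_Oxarol libraries, against 6.48, 8.84 and 9.85 FPKM in WT_Oxarol, 5.599, 4.53 and 7.599 in WT_PBS and 7.08, 9.27 and 3.92 in WT_untreated. Col9a2 stood at 8.28, 9.18 and 8.86 FPKM in the VDRcKO_Oxarol libraries, against 2.25, 3.59 and 3.46 FPKM in WT_Oxarol, 2.63, 1.37 and 2.84 in WT_PBS and 1.56, 4.03 and 2.28 in WT_untreated. Col9a3 stood at 27.3, 30.04 and 27.7 FPKM in the VDRcKO_Oxarol libraries, against 9.17, 11.97 and 14.3 FPKM in WT_Oxarol, 8.02, 5.71 and 7.56 in WT_PBS and 7.36, 10.5 and 5.36 in WT_untreated. For all 3 the VDRcKO_Oxarol libraries lay above all wild type ones, but for Col9a1 only by a small step, and its difference of 0.42 ± 0.26 (SE, limma adjusted p = 0.282) did not pass. Col9a2 rose by 1.27 ± 0.25 (SE, limma adjusted p = 0.0159) and Col9a3 by 1.21 ± 0.21 (SE, limma adjusted p = 0.0108). Col9a3 over Col9a1 was 2.49 ± 0.20 in VDRcKO_Oxarol and 1.41 ± 0.05 in WT_Oxarol (SD, n = 3 each; exact permutation p = 0.1).

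Col10a1, a marker of chondrocytes that have enlarged before mineralization, stood at 3.73, 2.87 and 2.87 FPKM in the VDRcKO_Oxarol libraries, against 0.853, 1.77 and 1.101 FPKM in WT_Oxarol, 1.28, 0.414 and 1.91 in WT_PBS and 1.88, 1.87 and 1.49 in WT_untreated. It rose by 0.91 ± 0.24 (SE, limma adjusted p = 0.0359), at low level and with a call lost under 12 of 25 alternatives. Col11a1 and Col11a2 encode type XI chains, which set the width of cartilage fibrils. Col11a1 stood at 10.3, 10.4 and 11.1 FPKM in the VDRcKO_Oxarol libraries, against 4.48, 5.57 and 7.36 FPKM in WT_Oxarol, 4.48, 3.77 and 5.92 in WT_PBS and 7.48, 6.42 and 4.38 in WT_untreated. Col11a2 stood at 4.56, 4.32 and 3.31 FPKM in the VDRcKO_Oxarol libraries, against 1.04, 1.45 and 1.56 FPKM in WT_Oxarol, 1.42, 0.844 and 1.22 in WT_PBS and 0.935, 1.97 and 0.9397 in WT_untreated. Both separated from all wild type libraries, with changes of 0.79 ± 0.20 (SE, limma adjusted p = 0.0311) for Col11a1 and 1.11 ± 0.19 (SE, limma adjusted p = 0.009296) for Col11a2. With the GC adjustment 6 of the 7 cartilage collagens were still called. With GC content and length adjusted together 4 of 7 were called, and Col11a1 (limma adjusted p = 0.0531; 0.00883 to 0.137 over 26 alternatives) and Col11a2 (0.50 ± 0.17, SE, limma adjusted p = 0.0722; 0.00323 to 0.121 over 25) were not. With the series term 3 of 7 were called, Col2a1, Col9a3 and Col11a2.

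Other cartilage genes gave the background for these values. Of 18 tested cartilage genes that are not collagens, 3 rose in VDRcKO_Oxarol against WT_Oxarol and 0 fell, with a median of 0.35 and all 18 differences above 0. Over all genes tested 8.71% were called higher and 4.43% lower, and the share above 0 was not counted. Acan, the large proteoglycan of cartilage, stood at 18.1, 16.4 and 17.3 FPKM in VDRcKO_Oxarol, against 6.97, 11.2 and 10.1 in WT_Oxarol, and rose by 0.83 ± 0.23 (SE, limma adjusted p = 0.04096). Sox9, a transcription factor of chondrocytes that hair follicle cells also make, rose by 0.74 ± 0.19 (SE, limma adjusted p = 0.0299), and Matn3, a cartilage matrix protein, by 1.01 ± 0.21 (SE, limma adjusted p = 0.0186). The summed FPKM of the list ran from 2688 to 3206 in VDRcKO_Oxarol and from 1532 to 3098 in WT_Oxarol, so the groups overlapped. The mean log2(FPKM + 1) over the same list, which weights each gene equally, did not overlap, at 4.62 to 4.74 in VDRcKO_Oxarol, 4.02 to 4.41 in WT_Oxarol and 3.82 to 4.50 over the 9 wild type libraries. Non-collagen cartilage genes thus moved with the cartilage collagens on that scale, and Matn1 was listed at 0 in every library. Whether a different amount of cartilage in the ear pieces had a part in the cartilage collagen result was not tested.

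In type IV, 2 of 5 tested chains rose. Col4a1 and Col4a2, which together form the network of nearly all basement membranes, rose, while Col4a3, Col4a5 and Col4a6, the chains of more restricted membranes, did not pass. Col4a1 stood at 7.81, 5.42 and 4.63 FPKM in the VDRcKO_Oxarol libraries, against 3.37, 3.61 and 2.55 FPKM in WT_Oxarol, 3.56, 3.501 and 3.46 in WT_PBS and 3.21, 3.698 and 5.14 in WT_untreated. Col4a2 stood at 12.3, 10.5 and 9.72 FPKM in the VDRcKO_Oxarol libraries, against 3.91, 4.66 and 4.76 FPKM in WT_Oxarol, 4.399, 4.48 and 5.61 in WT_PBS and 3.33, 4.25 and 6.24 in WT_untreated. Col4a2 lay above all wild type libraries in VDRcKO_Oxarol, whereas Col4a1 overlapped with WT_untreated. The changes were 0.72 ± 0.18 (SE, limma adjusted p = 0.0322) for Col4a1 and 1.12 ± 0.18 (SE, limma adjusted p = 0.00765) for Col4a2. With the GC adjustment Col4a1 was no longer called (0.51 ± 0.17, SE, limma adjusted p = 0.0688), and Col4a2 was (0.83 ± 0.14, SE, limma adjusted p = 0.00842). Over 26 alternatives the limma adjusted p ranged from 0.0137 to 0.185 for Col4a1 and from 0.00121 to 0.108 for Col4a2. Col4a1 over Col4a2 was 0.637, 0.515 and 0.477 in VDRcKO_Oxarol and 0.861, 0.775 and 0.536 in WT_Oxarol, and these overlapped.

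The genes Col4a1 and Col4a2 start back to back from one shared stretch of DNA, and their windows are printed because both genes rose. In GRCm38.p6 the window of Col4a1 is chr8:11312777-11313076 on the minus strand and that of Col4a2 is chr8:11312555-11312854 on the plus strand, with 78 bases in common. Capitals mark the same 3 motifs on either strand.
Col4a1: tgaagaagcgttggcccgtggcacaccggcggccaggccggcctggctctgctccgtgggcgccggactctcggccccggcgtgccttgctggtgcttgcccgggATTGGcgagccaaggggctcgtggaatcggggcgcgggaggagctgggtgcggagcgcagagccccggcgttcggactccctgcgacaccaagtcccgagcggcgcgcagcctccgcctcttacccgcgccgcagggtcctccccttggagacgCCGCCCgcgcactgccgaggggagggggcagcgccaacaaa
Col4a2: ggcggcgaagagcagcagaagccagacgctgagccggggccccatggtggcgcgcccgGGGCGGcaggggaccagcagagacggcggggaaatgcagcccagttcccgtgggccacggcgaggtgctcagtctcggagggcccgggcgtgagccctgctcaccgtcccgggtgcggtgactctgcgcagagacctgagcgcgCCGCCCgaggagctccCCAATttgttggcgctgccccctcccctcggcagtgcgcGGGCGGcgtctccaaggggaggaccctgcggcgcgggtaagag
The Col4a1 window holds CCAAT at 145 bases before its start and GGGCGG at 10 bases after it, both on the other strand. The Col4a2 window holds CCAAT at 32 bases before its start and GGGCGG at 192 and 48 bases before and 8 bases after it, and neither window holds TATAAA. In that annotation the genes overlap at their starts, from base 11312805 to base 11312889 of chromosome 8. The printed Col4a1 window takes a start inside this stretch and not its outer end. Strand was not stated for the reads, so reads from the overlap cannot be told apart.

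The remaining type IV chains were near the limit of the filter. Col4a3 had 1.01 ± 0.0965 FPKM in VDRcKO_Oxarol and 1.22 ± 0.159 FPKM in WT_Oxarol (SD, n = 3 each), a difference of -0.14 ± 0.13 (SE, limma adjusted p = 0.491). Col4a5, which with Col4a6 is part of the epidermal basement membrane, had 2.02 ± 0.466 FPKM in VDRcKO_Oxarol and 1.28 ± 0.229 FPKM in WT_Oxarol (SD, n = 3 each), a difference of 0.40 ± 0.13 (SE, limma adjusted p = 0.07201) with no overlap. Col4a6 had 0.738 ± 0.108 FPKM in VDRcKO_Oxarol and 0.803 ± 0.249 FPKM in WT_Oxarol (SD, n = 3 each), a difference of -0.04 ± 0.12 (SE, limma adjusted p = 0.816), and Col4a4 stayed at 0.422 to 0.950 FPKM over the 12 libraries and was not tested.

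The 2 collagens that lie next to basement membranes, chiefly of vessels and epithelia, rose. Col18a1, whose end fragment is the angiogenesis inhibitor endostatin, stood at 8.74, 12.3 and 8.28 FPKM in the VDRcKO_Oxarol libraries, against 2.83, 3.7 and 3.33 FPKM in WT_Oxarol, 3.19, 3.18 and 2.92 in WT_PBS and 1.18, 3.27 and 3.304 in WT_untreated. Col15a1, a related chain, stood at 5.21, 4.27 and 4.004 FPKM in the VDRcKO_Oxarol libraries, against 1.53, 1.98 and 1.72 FPKM in WT_Oxarol, 1.85, 1.82 and 1.68 in WT_PBS and 0.7502, 1.88 and 3.48 in WT_untreated. Both lay above all 9 wild type libraries, for Col15a1 by little over WT_untreated replicate 3. The changes were 1.32 ± 0.24 (SE, limma adjusted p = 0.0129) for Col18a1 and 1.00 ± 0.26 (SE, limma adjusted p = 0.0354) for Col15a1. With the series term neither was called (limma adjusted p = 0.0604 for Col18a1 and 0.159 for Col15a1); Col18a1 was lost under 2 of 26 alternatives and Col15a1 under 11 of 25, with ranges of 0.00104 to 0.121 and 0.00347 to 0.159. Endothelial markers moved in part with them: of 8 tested, 2 rose (Pecam1 and Vwf), 0 fell and the median was 0.44. Of all genes tested 8.71% were called higher. The summed levels of the endothelial markers were 47.8 to 50.1 FPKM in VDRcKO_Oxarol, 30.7 to 37.5 FPKM in WT_Oxarol and 35.8 to 47.2 FPKM in WT_untreated. The mean log2(FPKM + 1) over the list overlapped between VDRcKO_Oxarol (2.61 to 2.68) and WT_untreated (2.12 to 2.63). Against WT_PBS 0 of the 8 markers were called (16.3% of all genes in either direction), and against WT_untreated 1 rose, Pecam1 (12.8% of all genes). The part of vessels in the result was not tested.

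Neither collagen of the dermal-epidermal junction passed. These are the members that keratinocytes themselves use to hold the epidermis in place: Col17a1 spans the membrane of the basal cell at the hemidesmosome, and Col7a1 forms the anchoring fibrils beneath. Col17a1 stood at 93.03, 103 and 104 FPKM in the VDRcKO_Oxarol libraries, against 64.9, 43.9 and 57.6 FPKM in WT_Oxarol, 83.5, 65.1 and 76.02 in WT_PBS and 32.2, 81.5 and 85.8 in WT_untreated. The VDRcKO_Oxarol libraries lay above all wild type ones, but the difference of 0.86 ± 0.31 (SE, limma adjusted p = 0.0862) did not pass, and it passed under 3 of 26 alternatives, among them without WT_untreated replicate 1. Col7a1 stood at 1.22, 1.42 and 1.87 FPKM in the VDRcKO_Oxarol libraries, against 1.42, 0.998 and 1.27 FPKM in WT_Oxarol, 1.74, 2.16 and 1.94 in WT_PBS and 1.51, 2.13 and 1.92 in WT_untreated. The groups overlapped and the difference was 0.16 ± 0.13 (SE, limma adjusted p = 0.413). Of 10 markers of epidermal keratinocytes, 0 rose, where 8.71% of all genes tested were called higher. The summed level of these markers ran from 6604 to 7608 FPKM in VDRcKO_Oxarol and from 6773 to 8493 FPKM in WT_Oxarol, which overlap.

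Type VI forms beaded filaments around cells, and 2 of its 3 common chains rose. Col6a1 stood at 114, 141 and 139 FPKM in the VDRcKO_Oxarol libraries, against 77.01, 74.95 and 85.1 FPKM in WT_Oxarol, 76.2, 67.7 and 92.3 in WT_PBS and 42.9, 95.6 and 75.8 in WT_untreated. Col6a2 stood at 39.4, 51.04 and 49.4 FPKM in the VDRcKO_Oxarol libraries, against 27.8, 23.02 and 29.8 FPKM in WT_Oxarol, 26.8, 27.6 and 30.2 in WT_PBS and 23.1, 30.2 and 28.7 in WT_untreated. Col6a3 stood at 15.9, 19.5 and 17.2 FPKM in the VDRcKO_Oxarol libraries, against 11.6, 9.56 and 10.9 FPKM in WT_Oxarol, 12.2, 12.6 and 12.6 in WT_PBS and 8.805, 13.03 and 11.8 in WT_untreated. All 3 genes had every VDRcKO_Oxarol library above every wild type library. Col6a2 rose by 0.77 ± 0.14 (SE, limma adjusted p = 0.0109) and Col6a3 by 0.67 ± 0.13 (SE, limma adjusted p = 0.0156), whereas the difference of Col6a1, 0.72 ± 0.24 (SE, limma adjusted p = 0.0687), did not pass. Col6a1 was at its lowest in WT_untreated replicate 1, and it was called without that library. The ratios between these chains overlapped between the groups, as given above. With the series term neither Col6a2 (limma adjusted p = 0.0543; 0.00178 to 0.1702 over 26 alternatives) nor Col6a3 (limma adjusted p = 0.0711; 0.00186 to 0.134) was called.

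The fibril-associated collagens, which bridge fibrils and other matrix, rose in 3 of 3 genes tested. Col12a1 stood at 2.69, 4.397 and 4.22 FPKM in the VDRcKO_Oxarol libraries, against 2.27, 2.16 and 1.75 FPKM in WT_Oxarol, 2.95, 2.41 and 2.54 in WT_PBS and 1.73, 2.75 and 1.897 in WT_untreated. Col14a1 stood at 9.74, 10.9 and 9.52 FPKM in the VDRcKO_Oxarol libraries, against 5.56, 4.32 and 5.64 FPKM in WT_Oxarol, 4.39, 3.77 and 4.96 in WT_PBS and 3.31, 6.13 and 7.97 in WT_untreated. Col16a1 stood at 12.1, 14.8 and 11.96 FPKM in the VDRcKO_Oxarol libraries, against 6.29, 5.36 and 4.88 FPKM in WT_Oxarol, 6.11, 5.199 and 5.97 in WT_PBS and 3.71, 7.54 and 6.07 in WT_untreated. Col12a1 overlapped with WT_PBS and WT_untreated through VDRcKO_Oxarol replicate 1, and the other 2 genes lay above all wild type libraries. Col16a1 changed by 1.10 ± 0.19 (SE, limma adjusted p = 0.0106), Col14a1 by 0.84 ± 0.22 (SE, limma adjusted p = 0.0362) and Col12a1 by 0.62 ± 0.17 (SE, limma adjusted p = 0.0378); the call of Col12a1 was lost under 16 of 25 alternatives that of Col14a1 under 10 of 26 and that of Col16a1 under 1 of 26. With the series term Col12a1 and Col14a1 were not called.

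The short chain collagens of type VIII, which form lattices beneath endothelium and in vessel walls, rose in both genes. Col8a1 stood at 115, 132 and 131 FPKM in the VDRcKO_Oxarol libraries, against 49.7, 70.2 and 65.1 FPKM in WT_Oxarol, 53.9, 48.4 and 68.5 in WT_PBS and 43.02, 68.2 and 43.2 in WT_untreated. Col8a2 stood at 18.2, 17.7 and 17.6 FPKM in the VDRcKO_Oxarol libraries, against 5.63, 5.72 and 5.55 FPKM in WT_Oxarol, 8.21, 6.28 and 7.43 in WT_PBS and 3.87, 7.43 and 6.39 in WT_untreated. For both genes all 3 VDRcKO_Oxarol libraries lay far above the 9 wild type libraries. Col8a2 rose by 1.504 ± 0.17 (SE, limma adjusted p = 0.00288) and Col8a1 by 1.03 ± 0.20 (SE, limma adjusted p = 0.0143). Col8a2 was called under all 26 alternatives run, the one member of which that was true, with changes from 1.03 to 1.64, while Col8a1 was lost under 2 of 26, the series term and the second series alone.

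A further 3 members were tested and did not pass. Col27a1, a fibrillar chain of cartilage, had 4.201 ± 0.593 FPKM in VDRcKO_Oxarol and 3.21 ± 0.232 FPKM in WT_Oxarol (SD, n = 3 each), a difference of 0.30 ± 0.16 (SE, limma adjusted p = 0.216). With GC content and length adjusted together the difference was -0.06 ± 0.23 (SE). Col27a1 was classed as minor fibrillar and is not among the 7 cartilage collagens counted above. Col23a1, a transmembrane collagen, had 1.97 ± 0.405 FPKM in VDRcKO_Oxarol and 2.701 ± 0.484 FPKM in WT_Oxarol (SD, n = 3 each). It was the member with the lowest log2 change, -0.32 ± 0.14 (SE, limma adjusted p = 0.149), and it was called lower only when GC content and length were adjusted together (-0.61 ± 0.18, SE, limma adjusted p = 0.0437; 0.319 with the series term and 0.336 within the second series alone). Col28a1 had 1.33 ± 0.309 FPKM in VDRcKO_Oxarol and 1.05 ± 0.239 FPKM in WT_Oxarol (SD, n = 3 each), a difference of 0.18 ± 0.13 (SE, limma adjusted p = 0.3703). The 10 members that were not tested (Col4a4, Col6a4, Col6a5, Col6a6, Col13a1, Col19a1, Col20a1, Col22a1, Col24a1 and Col25a1) reached at most 0.958 FPKM, and Col6a4 was listed at 0 in 8 libraries. Among them, Col6a5 and Col6a6, further chains of type VI, had all 3 VDRcKO_Oxarol libraries above all 9 wild type libraries. Of all genes tested 15% did so, and the share among genes that were not tested was not counted. Col6a5 stood at 0.273, 0.185 and 0.149 FPKM in VDRcKO_Oxarol, against at most 0.1203 FPKM in wild type. Col6a6 stood at 0.451, 0.341 and 0.413 FPKM, against at most 0.279 FPKM. These levels lie below the filter and the VDRcKO_Oxarol libraries were the shallowest, so no result is read from them.

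The second comparison, WT_Oxarol against WT_PBS, asks what the ointment does in wild type ears; PBS is not the base of the ointment. No collagen gene was called: 0 of 33 by limma, with 3 at an unadjusted p under 0.05, while 0.249% of all genes tested were called higher and 0.0569% lower. The lowest adjusted p values were those of Col7a1, Col9a3 and Col4a6. Col7a1 averaged 1.23 ± 0.215 FPKM in WT_Oxarol and 1.95 ± 0.212 FPKM in WT_PBS (SD, n = 3 each), a difference of -0.40 ± 0.13 (SE, limma adjusted p = 0.377), and its groups did not overlap. Col9a3 averaged 11.8 ± 2.57 FPKM in WT_Oxarol and 7.09 ± 1.22 FPKM in WT_PBS (SD, n = 3 each), a difference of 0.65 ± 0.21 (SE, limma adjusted p = 0.382), also without overlap. Col4a6 averaged 0.803 ± 0.249 FPKM in WT_Oxarol and 1.21 ± 0.145 FPKM in WT_PBS (SD, n = 3 each), a difference of -0.30 ± 0.12 (SE, limma adjusted p = 0.535). The libraries did not overlap for 1 member that was higher (7.53% of all genes) and 6 that were lower (8.36% of all genes). Those 6 were Col4a6, Col6a3, Col7a1, Col8a2, Col12a1 and Col17a1. All 7 cartilage collagens had differences above 0, with a median of 0.33, and none passed. Of the same 7, 0 were above 0 in WT_PBS against WT_untreated (median -0.13) and 4 in WT_Oxarol against WT_untreated (median 0.07). For Col1a1 the difference was -0.03 ± 0.42 (SE, limma adjusted p = 0.9995).

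Saline itself left no called collagen either. In WT_PBS against WT_untreated 0 of 33 passed, with 1 at an unadjusted p under 0.05, and 0.00711% of all genes tested were called higher and 0 lower. That gene was Col2a1, with 1.99 ± 0.712 FPKM in WT_PBS and 3.53 ± 0.873 FPKM in WT_untreated (SD, n = 3 each), a difference of -0.61 ± 0.23 (SE, limma adjusted p = 0.477); it was the 1 member whose WT_PBS libraries all lay below those of WT_untreated (7.43% of all genes), and 0 lay above (5.6%). In WT_Oxarol against WT_untreated 0 of 33 passed, with 4 at an unadjusted p under 0.05, where 0.989% of all genes tested were called higher and 0.32% lower (1.31% in either direction). Those 4 were Col4a3, Col4a6 and Col7a1, with negative differences, and Col9a3, with a positive one of 0.57 ± 0.21 (SE, limma adjusted p = 0.199). All 3 WT_Oxarol libraries lay above all WT_untreated libraries for 0 members (8.97% of all genes) and below them for 2, Col4a6 and Col7a1 (9.85%).

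VDRcKO_Oxarol was also set against the other wild type groups, which differ from it in treatment as well as genotype. Against WT_PBS, 22 of the 33 rose and 0 fell (10.8% of all genes tested were called higher and 5.49% lower). Against WT_untreated, 21 rose and 2 fell (12.8% higher and 6.2% lower). All 3 VDRcKO_Oxarol libraries lay above all WT_PBS libraries for 27 members (31% of all genes) and above all WT_untreated libraries for 24 (24.4%). They lay below for 2 against WT_PBS (16.4%) and for 3 against WT_untreated (13.5%). The 2 that fell were Col4a3, by 0.47 on the log2 scale, and Col4a6, by 0.38. Col4a3 had 1.01 ± 0.0965 FPKM in VDRcKO_Oxarol and 1.796 ± 0.432 FPKM in WT_untreated (SD, n = 3 each) and Col4a6 had 0.738 ± 0.108 FPKM in VDRcKO_Oxarol and 1.26 ± 0.0664 FPKM in WT_untreated (SD, n = 3 each); limma adjusted p was 0.0365 for Col4a3 and 0.0430 for Col4a6. The call of Col4a3 was lost under 9 of 25 alternatives and that of Col4a6 under 14 of 25, the series term among them. Col9a1, which did not pass against WT_Oxarol, rose against WT_PBS by 0.87 ± 0.26 (SE, limma adjusted p = 0.0445), a call lost under 15 of 26 alternatives. Col6a1 rose against WT_untreated by 0.94 ± 0.24 (SE, limma adjusted p = 0.0241), a call lost under 5 of 26. Leaving out VDRcKO_Oxarol replicate 2 left 13 called against WT_PBS (959 of all genes) and 14 against WT_untreated (1168 of all genes). Leaving out WT_PBS replicate 1 or 2 left 11 or 12 against WT_PBS (543 or 646 of all genes). Fitting the 2 groups alone left 9 against WT_untreated (435 of all genes). With the series term 10 were called against WT_PBS (611 of all genes) and 14 against WT_untreated (1109 of all genes). The 3 comparisons share the VDRcKO_Oxarol libraries. Col1a2 was called against WT_Oxarol and in neither of the other comparisons.

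**Figure D4:**
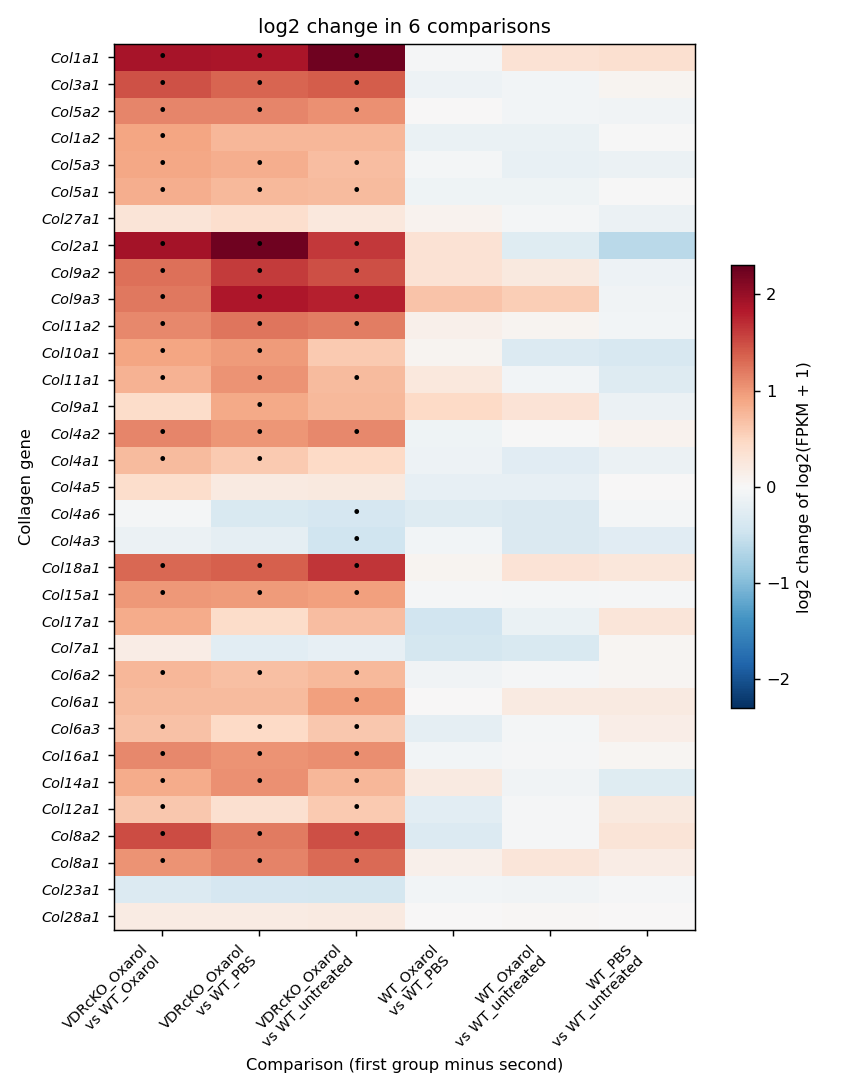
Log2 change of the 33 tested collagen genes (rows, by type) in 6 comparisons (columns), first group minus second, as colour, with a dot where the limma adjusted p was under 0.05. The dots stand in the 3 columns with VDRcKO_Oxarol, 23, 22 and 23 of them, and the 3 wild type columns hold 0.

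Other genes of the collagen pathway were counted beside the 8.71% of all genes tested that were called higher in VDRcKO_Oxarol against WT_Oxarol. Of 20 tested genes for folding and hydroxylation, 5 rose in VDRcKO_Oxarol against WT_Oxarol and 0 fell, with a median log2 change of 0.37. Plod1, a lysyl hydroxylase, stood at 13.8, 13.4 and 12.5 FPKM in VDRcKO_Oxarol, against 6.89, 8.096 and 8.25 in WT_Oxarol, with no overlap, and changed by 0.71 ± 0.15 (SE, limma adjusted p = 0.0197). The related enzymes Plod2 and Plod3 rose by 0.71 ± 0.18 (SE, limma adjusted p = 0.0331) and 0.80 ± 0.20 (SE, limma adjusted p = 0.0283). Crtap, part of the prolyl 3-hydroxylase complex, rose by 0.48 ± 0.12 (SE, limma adjusted p = 0.02798), and Fkbp10, a collagen chaperone, rose too. Serpinh1, the collagen-specific chaperone, and the prolyl hydroxylase subunits P4hb, P4ha1 and P4ha2 did not pass. Against WT_PBS 10 of the 20 rose, Serpinh1 and P4hb among them, where 10.8% of all genes tested were called higher. The summed level of the list was 904.7 to 1040.0 FPKM in VDRcKO_Oxarol and 797 to 874 FPKM in WT_Oxarol.

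Of 11 tested genes for export and removal of the end peptides, 1 rose, a share close to that of all genes, and 0 fell, with a median of 0.32. That gene was Bmp1, the protease that removes the carboxy-terminal propeptide, at 12.2, 15.7 and 16.8 FPKM in VDRcKO_Oxarol, against 8.55, 8.85 and 9.64 in WT_Oxarol, a change of 0.66 ± 0.18 (SE, limma adjusted p = 0.0402). Its enhancers Pcolce and Pcolce2 gave differences of 0.42 ± 0.16 (SE, limma adjusted p = 0.107) and 0.50 ± 0.15 (SE, limma adjusted p = 0.0534), which did not pass. Of 14 genes for crosslinking and fibril assembly, 4 rose and 0 fell, with a median of 0.47. Lox, the lysyl oxidase that starts crosslinks, stood at 27.9, 34.2 and 38.5 FPKM in VDRcKO_Oxarol, against 15.2, 20.1 and 15.9 in WT_Oxarol and rose by 0.93 ± 0.16 (SE, limma adjusted p = 0.009201). Fn1, fibronectin, rose by 1.00 ± 0.17 (SE, limma adjusted p = 0.009201), the small proteoglycan Bgn by 0.64 ± 0.13 (SE, limma adjusted p = 0.0159), and the matrix protein Postn by 0.96 ± 0.28 (SE, limma adjusted p = 0.0486). Dcn, a small proteoglycan of dermal fibrils, had a difference of 0.03 ± 0.13 (SE, limma adjusted p = 0.8804) and did not pass.

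Of 8 tested collagen receptors, 5 rose and 0 fell, with a median of 0.50. Ddr1, a receptor kinase of epithelia, stood at 19.5, 20.96 and 18.1 FPKM in VDRcKO_Oxarol, against 9.98, 7.79 and 8.94 in WT_Oxarol and rose by 1.06 ± 0.23 (SE, limma adjusted p = 0.0198). Itga11, an integrin chain of fibroblasts, rose by 0.89 ± 0.20 (SE, limma adjusted p = 0.0227), and its partner Itgb1 rose as well. Lair1, an inhibitory receptor of immune cells, rose by 0.86 ± 0.14 (SE, limma adjusted p = 0.00772) at 1.56, 2.54 and 1.87 FPKM in VDRcKO_Oxarol, against 0.542, 0.538 and 0.824 in WT_Oxarol. Mrc2, which takes collagen fragments into cells, rose by 0.54 ± 0.14 (SE, limma adjusted p = 0.03802), and Gp6, the platelet receptor, was listed at 0 in every library. In WT_Oxarol against WT_PBS none of the genes of these 4 lists was called by limma.

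**Figure D5:**
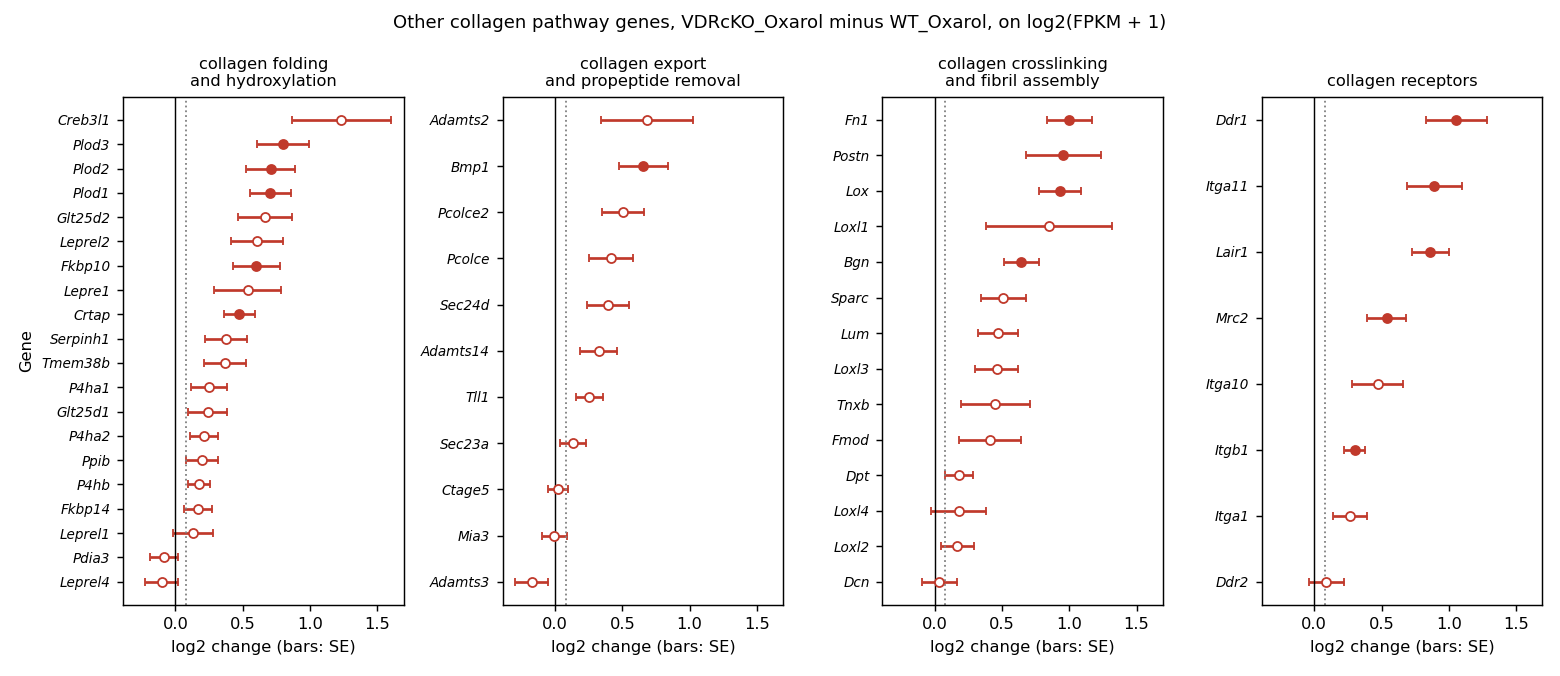
Log2 change of 53 other collagen pathway genes in 4 lists, VDRcKO_Oxarol minus WT_Oxarol, as points with SE bars, filled where the limma adjusted p was under 0.05; the dotted line is the median of all genes tested, 0.08. The filled points number 5, 1, 4 and 5 from the left panel to the right one.

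Markers of the cells that make or hold collagen were read beside these results. Their counts stand against 8.71% of all genes tested called higher and 4.43% lower. Of 16 fibroblast markers, 4 rose (Pdgfrb, Fbn1, Fbln2 and Vim) and 0 fell in VDRcKO_Oxarol against WT_Oxarol, with a median of 0.30, and their summed level was 5469 to 6327 FPKM in VDRcKO_Oxarol, 4565 to 5448 FPKM in WT_Oxarol and 4251 to 6150 FPKM in the 9 wild type libraries. The mean log2(FPKM + 1) over this list was 6.25 to 6.37 in VDRcKO_Oxarol, 5.89 to 5.99 in WT_Oxarol and 5.88 to 6.23 over the 9 wild type libraries, with no overlap. The part of fibroblast number in the collagen result was not tested. Of 6 macrophage markers 5 rose and 0 fell, at a summed level of 640.0 to 848 FPKM in VDRcKO_Oxarol and 356 to 461 FPKM in WT_Oxarol. Of 3 bone markers 0 rose, and Bglap, osteocalcin, fell by 1.26 on the log2 scale (SE 0.25, limma adjusted p = 0.0152). Against WT_PBS and against WT_untreated 0 of the 3 were called (16.3% and 19% of all genes in either direction). The summed level of the bone list was 36.7 to 65.2 FPKM in VDRcKO_Oxarol and 87.3 to 129 FPKM in WT_Oxarol. It was 64.4 to 80.6 FPKM in WT_PBS and 47.4 to 85.7 FPKM in WT_untreated, so WT_Oxarol was the highest group. Of 5 smooth muscle and pericyte markers 1 rose (Cspg4) and 0 fell. The striated muscle and adipocyte lists had 0 called in either direction. Summed levels did not overlap between VDRcKO_Oxarol and WT_Oxarol for the adipocyte list (825.3 to 1443 FPKM in VDRcKO_Oxarol and 461 to 681 FPKM in WT_Oxarol) and the smooth muscle and pericyte list (110.1 to 114 FPKM in VDRcKO_Oxarol and 87.6 to 101 FPKM in WT_Oxarol). Both lists overlapped with WT_untreated, at 621 to 2642 FPKM and 91.8 to 135 FPKM, and the striated muscle list overlapped with WT_Oxarol. The part of these cells in the collagen result was not tested.

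Of 19 tested hair follicle markers, 16 rose and 0 fell, with a median of 3.71, where 8.71% of all genes tested were called higher. The summed level of these markers was 1421, 766 and 330.0 FPKM in VDRcKO_Oxarol, against 76.3, 15.2 and 14.1 FPKM in WT_Oxarol. WT_PBS replicate 3, at 380.8 FPKM, and WT_untreated replicate 3, at 202 FPKM, also had high follicle levels. The part of hair follicles in the collagen result was not tested.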

How the data were processed

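RNA from mouse ear skin (12 libraries) was sequenced after library preparation with a NEBNext Ultra kit, per the labels' protocols, with strandedness not stated. The authors deposited 1 table per library with a value per gene symbol, read here as FPKM because the submitters' processing notes name Cufflinks 2.1.1 beside TopHat2 2.0.8, Bowtie2 2.1.0 and mm9. Depth is unknown, so no counting interval is given.

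Values were transformed to log2(FPKM + 1). Genes that reached 1 FPKM in 3 or more of the 12 libraries were fitted with limma 3.58.1 (R 4.3.3) as 4 group means with a mean-variance trend and 8 residual degrees of freedom. The 6 comparisons were each adjusted by Benjamini-Hochberg over all genes tested, with calls at 0.05. Single library values were compared by exact permutation tests. Samples were grouped by genotype and treatment labels. The labels do not tie libraries to animals, and the spread behind each p-value may therefore be technical. Promoters came from RefSeq GRCm38.p6, since no sequence of the files' build was used.

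The members, gene lists and tests were chosen with earlier results of these data known. Every member could be named; of each pathway or marker list, up to 4 genes were named by smallest adjusted p, and Itgb1, Fkbp10, Gp6, Dcn, Matn1 and the chaperones and prolyl hydroxylase subunits that did not pass were named after their values were seen. Alternatives changed the pseudocount, filter, scaling, variance model, library series and libraries included, and, chosen after seeing the data, adjusted for GC content and length. The calls of pathway and marker genes that are not collagens were not followed under these alternatives. The result of 1 epidermal marker gene is not reported here.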

Additional observations from a re-analysis of the deposited data

How the results depend on the processing

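Against WT_Oxarol, 23 collagen genes were called in VDRcKO_Oxarol, with 11 to 26 when 1 library was left out and 7 with the series term. Of all 14059 genes tested, those fits called 1848, 322 to 3433 and 283. Against WT_PBS the count was 22, with 11 to 25 when 1 library was left out and 10 with the series term. Of all genes, those fits called 2286, 543 to 3875 and 611. Against WT_untreated it was 23, with 14 to 24 when 1 library was left out, 14 with the series term, 9 with only the 2 groups compared and 5 within the second series alone. Within the second series alone the median log2 change of the 33 was 0.77 against WT_Oxarol, 0.68 against WT_PBS and 0.70 against WT_untreated. That fit holds fewer libraries, 1 in each wild type group, and leaves fewer residual degrees of freedom, so its counts are not given here. What lowered the counts was not tested. Comparisons among the wild type groups gave 0 called collagens under every alternative with more than 1 library per group. The second series alone sets 1 wild type library against 1, with a spread from VDRcKO_Oxarol only, and is left out of that count. No named collagen value changed sign where it was called. No paired analysis was possible because replicate numbers follow accession order and pair no libraries. Low depth in the VDRcKO_Oxarol libraries limits the members under 1 FPKM.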
